A study of Mus musculus with 5 samples.

Results

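Matrix metalloproteases are zinc proteases that cut collagens, elastin, laminins and many secreted or surface proteins, and the tissue inhibitors of metalloproteases, or Timps, bind their catalytic site and block them. In the lung, both families act while alveoli form and when injured tissue is rebuilt, and macrophages, neutrophils and fibroblasts are known sources. The 10 genes described here were taken by exact symbol from the 42454 features that every library lists: the proteases Mmp2, Mmp8, Mmp9, Mmp11, Mmp12, Mmp14 and Mmp19 and the inhibitors Timp1, Timp2 and Timp3. For each gene, the data were asked which cell class carried its RNA, and how its level within that class differed between libraries.

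The study exposed newborn C57BL/6J mice, under a day old, to room air or to over 95% O2 for 3 days and returned them to room air, with dams switched between litters. Lung cells were counted by droplet single-cell RNA sequencing at postnatal day 7 (pnd7) and day 60 (pnd60). There were 5 libraries: air at pnd7, hyperoxia at pnd7, hyperoxia at pnd7 after a sort, air at pnd60 and hyperoxia at pnd60. The study took the 4 unsorted libraries from its authors' earlier published dataset and added the sorted one. The sort took cells bright for C12FDG, a dye set free by β-galactosidase that is used to mark senescent cells, from 3 pooled lungs, and its label calls these cells senescent; the number of mice behind the 4 other libraries is not given in the sources used here.

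Each condition was 1 library, so differences between conditions were compared by size and could not be tested. Values are CPM, a gene's counts as a rate over all counts of a class's cells in a library. Intervals of CPM and of ratios are 95% exact intervals that cover counting error only, not the spread between cells or mice. Those given for shares of cells cover the draw of cells within a library, not the spread between mice. A gene was counted as differing within a class when its CPM differed by 2-fold or more with at least 50 counts over both libraries and at least 30 cells in each. After filtering, 13200 cells remained, 493 to 4756 a library, with median counts per cell from 2168 in air at pnd60 to 15529 in the sorted library, and 299 of these cells stayed unnamed. Classes are clusters named from marker genes, so that "alveolar macrophage" stands for alveolar macrophage-like cells, and likewise for the others. The sorted library stood apart: 413 of its 493 cells were named alveolar macrophages and 49 interstitial macrophages, and it held no alveolar fibroblasts, neutrophils or T cells. Of the 413, 370 lay in cluster 11, with 10 of 14 alveolar macrophage markers raised but 0 among its 10 leading genes. When clusters were integrated across libraries, 54 sorted cells were named alveolar macrophages and 239 stayed unnamed. Of the 239, 185 lay in a cluster with 13 of 14 alveolar macrophage markers raised. Pairs of libraries shared at most 7 cell barcodes.

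The 10 genes divided among few classes. The class with the highest CPM over all libraries, among classes with 30 cells or more in a library, was the adventitial fibroblast for Mmp2, Mmp14, Timp1, Timp2 and Timp3, the neutrophil for Mmp8 and Mmp9, the alveolar macrophage for Mmp12 and Mmp19, and the type I cell for Mmp11. Without the sorted library these classes were the same for 9 of the 10 genes, and Mmp12 was then highest in interstitial macrophages. Adventitial fibroblasts came mostly from pnd60, with 66 and 62 cells there and 14 and 6 in the unsorted pnd7 libraries. At pnd7 Mmp2 was higher in alveolar than in adventitial fibroblasts under both exposures. Timp3 at pnd7 was higher in aerocyte endothelial cells, at 1056 CPM in air and 1001 in hyperoxia, than in adventitial fibroblasts, at 854 and 611. These were descriptions of where counts lay, with B cells, which are not known as makers of these genes, as the measure of free RNA. In B cells, Mmp12 was at 0.925 CPM and Mmp19 at 0.463 CPM in air at pnd60, but Timp2 was at 43.0 CPM and Timp3 at 46.7 CPM there, so low levels of both inhibitors at pnd60 were not read as expression.

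**Figure D1:**
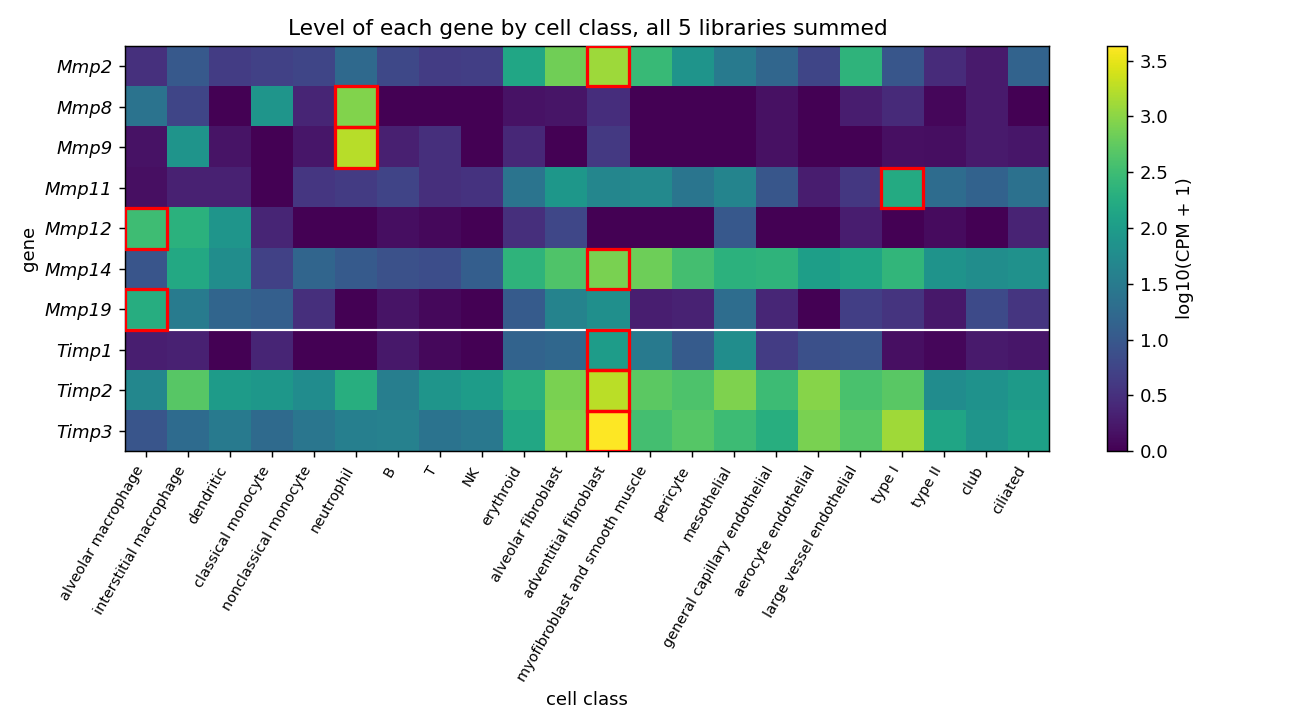
Level of each gene (rows) in each cell class (columns), with the counts of all 5 libraries summed. The colour gives log10(CPM + 1), with a red frame around each gene's highest class. Mmp8 and Mmp9 stand out in neutrophils and, with the sorted library included, Mmp12 and Mmp19 in alveolar macrophages, while Mmp2, Mmp14 and the 3 inhibitors are high across fibroblast classes.

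Mmp14 and Mmp2 were fibroblast genes in these libraries. Mmp14 is a membrane-bound collagenase that activates the secreted proenzyme of Mmp2, a gelatinase, in a complex that also holds Timp2. Mmp2 reached 1240 CPM in adventitial fibroblasts, and the larger alveolar fibroblast class, at 699 CPM, held 47.7% of all 7165 Mmp2 counts. Mmp14 was spread more widely, at 787 CPM in adventitial fibroblasts, 669 in myofibroblasts and smooth muscle, 425 in alveolar fibroblasts, 350 in pericytes and 249 in type I cells. Lymphatic endothelial cells, with at most 20 cells a library, lay outside the ranking, and their Mmp14 level was 1428 CPM in 4 cells in air at pnd7 and 890 CPM in 20 cells in hyperoxia at pnd60. In single alveolar fibroblasts, counts of Mmp2, Mmp14 and Timp2 were found together in 104 of 114 cells in air and 97 of 107 in hyperoxia at pnd7, and in 96 of 234 and 116 of 258 at pnd60. At pnd7 these were 91.2% and 90.7% of cells, where the product of the 3 genes' shares is 89.0% and 87.4%, and at pnd60 41.0% and 45.0%, where it is 33.7% and 38.6%. These shares move with depth, since cells with all 3 had a median of 12348.5 counts in air at pnd7 and 4625.5 in air at pnd60.

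Mmp8 and Mmp9 were neutrophil genes. Mmp8 is the neutrophil collagenase, and Mmp9 a gelatinase that neutrophils store in granules. Mmp9 counts were found in 16 of 16 neutrophils in air at pnd7, 13 of 14 in hyperoxia at pnd7, 28 of 31 in air at pnd60 and 56 of 60 in hyperoxia at pnd60, and neutrophils held 76.2% of all 713 Mmp9 counts. Its level in neutrophils was 1528 CPM, 1471, 1941 and 1956 CPM in the same order, so that the exposures differed little at either age. Mmp8 was at 1240, 736, 1062 and 601 CPM in these neutrophils, lower in the hyperoxia library at both ages by less than 2-fold. At pnd60 that was a log2 ratio of -0.82 on 67 against 70 counts, and at pnd7 the class held only 14 and 16 cells. Most Mmp8 counts lay in 3 cells of each library. These held 56 of 82 in air and 37 of 48 in hyperoxia at pnd7, and 45 of 70 and 35 of 67 at pnd60.

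Neutrophils were not the only holders of Mmp8, since alveolar macrophages carried 40.2% of its 679 counts at the much lower level of 23.3 CPM, and 23.8% of the 522 counts outside the sorted library. In alveolar macrophages it was at 11.2 CPM in air and 16.7 in hyperoxia at pnd7, 22.4 in the sorted library, and 24.8 in air and 38.2 in hyperoxia at pnd60. The summed neutrophil markers in the same cells did not follow that order, at 801, 187, 219, 55.9 and 76.9 CPM, with 7 to 9 of 12 markers detected and Ngp at 0 in all 5 libraries; their part in the Mmp8 counts was not tested.

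Mmp11, or stromelysin-3, is a secreted metalloprotease activated inside the cell by furin. It was highest in type I cells, the flat cells of the gas exchange surface, at 189 CPM (158 to 223) in air and 176 CPM (151 to 204) in hyperoxia at pnd7, and 122 CPM (82.5 to 175) and 144 CPM (105 to 193) at pnd60. Counts were seen in 37 of 48 type I cells in air at pnd7 and in 17 of 41 at pnd60, but depth also differed between the ages. Alveolar fibroblasts held a similar share of its 1574 counts at 82.4 CPM, with levels from 72.7 to 95.0 CPM in the 4 unsorted libraries. No class with enough counts put Mmp11 past 2-fold between any pair of conditions.

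Most Mmp12 and Mmp19 counts lay in alveolar macrophages of the sorted library. Mmp12 is the macrophage elastase, which cuts elastin and is tied to airspace enlargement in smoke-exposed mice, and Mmp19 is a secreted metalloprotease that cuts basement membrane proteins. Alveolar macrophages held 87.3% of all 4291 Mmp12 counts and 81.1% of all 2635 Mmp19 counts, but outside the sorted library they held 33.9% of 466 Mmp12 counts and 47.1% of 835 Mmp19 counts. In these 4 libraries Mmp12 was at 131 CPM in interstitial macrophages, 77.1 CPM in dendritic cells and 31.1 CPM in alveolar macrophages. At pnd60 it was at 217 CPM in air and 316 in hyperoxia in interstitial macrophages, and at 1.38 and 16.5 CPM in alveolar ones. In the interstitial ones, 3 cells held 28 of the 53 counts in air and 55 of the 72 in hyperoxia. All 26 alveolar counts in hyperoxia were in 1 cell. Mmp19 was also seen in adventitial fibroblasts at 63.5 CPM and alveolar fibroblasts at 40.9 CPM.

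With all libraries summed, the 3 inhibitors shared their highest class but spread differently below it. Timp1, which blocks most soluble metalloproteases, had only 492 counts in all, at 99.2 CPM in adventitial fibroblasts, 59.3 in mesothelial cells and 29.9 in myofibroblasts and smooth muscle. Timp2 was at 1803 CPM in adventitial fibroblasts, 946 in aerocytes, 860 in mesothelial cells and 806 in alveolar fibroblasts. Timp3 was at 4286 CPM in adventitial fibroblasts, 1318 in type I cells, 913 in alveolar fibroblasts and 791 in aerocytes. The mesothelial levels are uncertain, since 220 of the 241 mesothelial cells came from air at pnd7. Their cluster had 7 of 7 mesothelial markers raised, but also 7 of 7 erythroid ones. Integrated clusters named only 12 cells of that library mesothelial. Of the 220 cells, 97 held Timp2 counts and 14 held Timp1 counts.

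In GRCm38.p6 the other genes lie apart from each other, except Mmp8, which is on chromosome 9 like Mmp12, at chr9:7558429-7568486 on the plus strand. Mmp2 is at chr8:92827290-92853421, Mmp9 at chr2:164940326-164955850 and Mmp14 at chr14:54431598-54442456, all on the plus strand. On chromosome 10 are Mmp11, at chr10:75923221-75932502 on the minus strand, Timp3, at chr10:86300412-86349505, and Mmp19, at chr10:128790910-128800827. Timp1 is at chrX:20870166-20874737 and Timp2 at chr11:118301061-118355411.

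The Mmp12 gene lies at chr9:7344397-7360461 on the plus strand of GRCm38.p6, and RefSeq's promoter table gives it a pair of start sites. The 250 bases before each start are shown because Mmp12 differed most of the 10 genes between libraries. Capitals mark the letters TGANTCA, the AP-1 site bound by Fos and Jun proteins, searched on both strands. The first window spans chr9:7344147-7344396 and the second chr9:7347124-7347373.
Mmp12 first start: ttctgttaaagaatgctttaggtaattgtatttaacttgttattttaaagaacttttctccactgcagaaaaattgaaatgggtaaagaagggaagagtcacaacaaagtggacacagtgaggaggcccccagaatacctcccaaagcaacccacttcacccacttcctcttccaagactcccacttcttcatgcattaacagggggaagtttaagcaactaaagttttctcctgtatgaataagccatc
Mmp12 second start: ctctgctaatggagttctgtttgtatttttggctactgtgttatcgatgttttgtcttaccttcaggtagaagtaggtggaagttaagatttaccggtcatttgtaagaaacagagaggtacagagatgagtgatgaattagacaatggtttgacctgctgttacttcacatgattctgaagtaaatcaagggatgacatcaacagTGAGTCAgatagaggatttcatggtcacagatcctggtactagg
The only match lay in the second window, ending 37 bases before the start. It was also the only AP-1 match in the 8 windows that the table holds for 7 of the 10 genes, and 6.75% of all 32841 windows in the table hold these letters. The match is a description of the sequence, not a measured binding site, and 3′ counts do not tell which start was used.

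In alveolar macrophages, Mmp12 was much higher in hyperoxia than in air at pnd7. There were 4 Mmp12 counts in 4 of 105 macrophages in air at pnd7, 126 counts in 16 of 63 in hyperoxia at pnd7, 3590 counts in 185 of 413 in the sorted library, 2 counts in 2 of 182 in air at pnd60 and 26 counts in 1 of 191 in hyperoxia at pnd60. As levels these were 3.44 CPM (0.937 to 8.80), 141 CPM (117 to 167), 540 CPM (523 to 558), 1.38 CPM (0.167 to 4.98) and 16.5 CPM (10.8 to 24.2). The intervals of the pnd7 libraries did not overlap, and the highest were those of hyperoxia and of the sorted hyperoxia cells.

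Hyperoxia against air at pnd7 gave a log2 ratio of 5.35 (3.96 to 7.25) for Mmp12 in alveolar macrophages. A single macrophage held 51 of the 126 counts and 3 macrophages held 98 of them, and without the highest cell of each library the log2 ratio was 5.02. The order was the same at equal depth: after each cell was thinned to 3000 counts, Mmp12 was found in 2.50% (0.304 to 8.74) of macrophages in air and 19.2% (9.63 to 32.5) in hyperoxia at pnd7, and in 28.0% (23.6 to 32.8) of the sorted ones. Thinning left out 25, 11 and 31 macrophages under that depth, and no thinned B cell of either pnd7 library held a count, which allows a share of up to 3.73% in air and 6.16% in hyperoxia. The intervals of these shares are over the cells of a library, which are not replicates of a condition.

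The same difference was seen inside both clusters that held nearly all unsorted alveolar macrophages. These split the same cells and counts, so they are not a second measurement, and the cells holding counts in each were not counted. In cluster 8, with 66 cells in air and 39 in hyperoxia at pnd7, Mmp12 was at 4.39 and 167 CPM. Cluster 28 was led by cell division genes such as Top2a and Mki67, and it held no Mmp12 count in 38 cells in air at pnd7, which allows up to 15.1 CPM. It was at 96.3 CPM on 25 counts in 22 cells in hyperoxia, and at 412 CPM in 43 sorted cells. At pnd60 the 26 counts after hyperoxia came from 1 cell, so that no level of the class as a whole can be read from them.

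**Figure D2:**
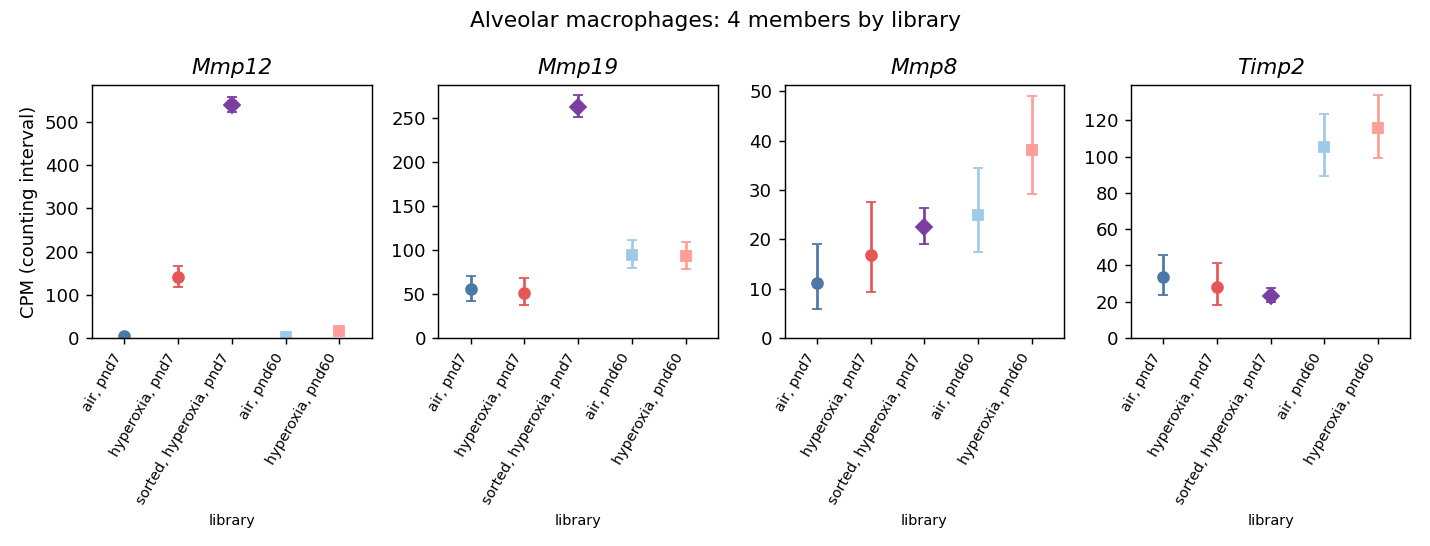
Levels of 4 of the genes in alveolar macrophages of each library, in CPM with 95% counting intervals. Mmp12 is at 3.44 CPM in air, 141 in hyperoxia and 540 in the sorted cells at pnd7, while Mmp19 is near 50 CPM in both unsorted pnd7 libraries and at 263 CPM in the sorted one.

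**Figure D3:**
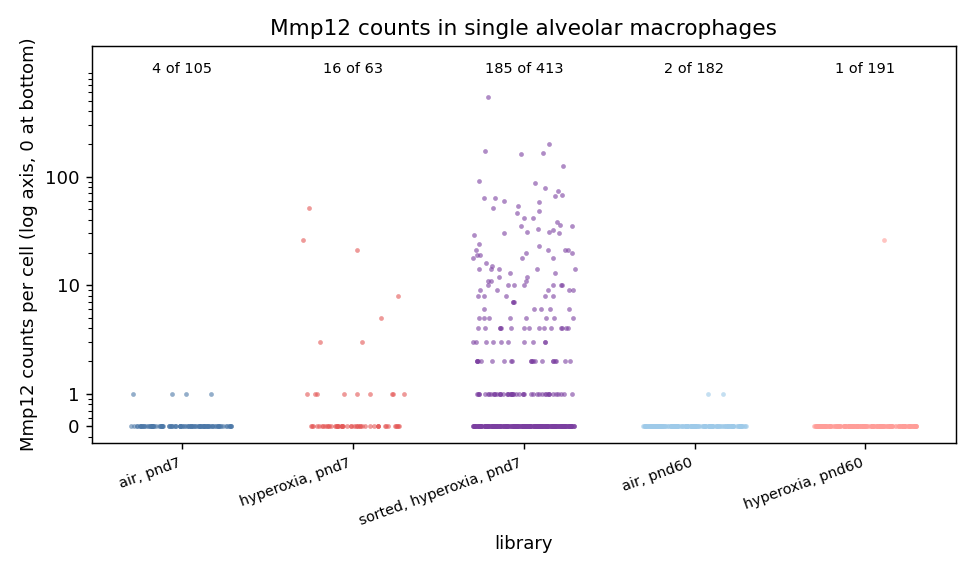
Mmp12 counts of single alveolar macrophages by library, on a log axis with cells at 0 along the bottom. In the sorted library 185 of 413 cells hold counts, the highest with 542, and in hyperoxia at pnd60 all 26 counts sit in 1 cell.

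Mmp19 in alveolar macrophages stayed within 2-fold between air and hyperoxia. It was at 55.0 CPM (42.4 to 70.3) in air and 51.3 CPM (37.6 to 68.5) in hyperoxia at pnd7, at 263 CPM (250.4 to 275.2) in the sorted library, and at 94.5 CPM (79.3 to 112) and 92.8 CPM (78.4 to 109) at pnd60. Counts were found in 40 of 105, 24 of 63, 320 of 413, 71 of 182 and 74 of 191 macrophages. Thinned to 3000 counts a cell, 13.8% of macrophages in air, 13.5% in hyperoxia and 43.2% in the sorted library held Mmp19 at pnd7, so the sorted cells alone stood apart.

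Over all classes at pnd7, few of the 10 genes differed between hyperoxia and air. Of 36 pairs of gene and class with enough counts, in 11 classes and from 8 of the 10 genes, 1 was higher by 2-fold or more, where 0.833% of all pairs were, and 3 were lower, where 2.45% of all pairs were. The median log2 ratio over the 36 pairs was -0.14. The pair that was higher was Mmp12 in alveolar macrophages, with 4 counts in air and 126 in hyperoxia. It reached the minimum of counts only by its hyperoxia level, so it cannot be weighed against the 0.833%. The lower ones were Mmp2 in general capillary cells and Mmp14 and Timp3 in erythroid cells. Mmp2, with 41 counts in air and 9 in hyperoxia, likewise reached the minimum only by its air level. The share of all genes that were lower differed by class. It was 19.5% of 5030 genes in erythroid cells and 0.741% of 6346 in general capillary cells, so the 2.45% is not the share to set beside the erythroid pairs.

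Mmp2 in general capillary cells was at 43.8 CPM on 41 counts in air and 8.70 CPM on 9 counts in hyperoxia, a log2 ratio of -2.33, but 38 of the 41 counts were in 3 cells. Summed alveolar fibroblast markers in those capillary cells were at 3441 CPM in air and 2196 CPM in hyperoxia. These markers include Scn7a, a leading gene of capillary cells with integrated clusters, and were at 3449 and 3576 CPM at pnd60, where Mmp2 had 4 and 7 counts. Adventitial fibroblast markers were at 81.3 and 28.0 CPM at pnd7, and myofibroblast markers at 90.9 and 59.9 CPM. The part of fibroblast RNA in the Mmp2 counts was not tested. At a coarser clustering the Mmp2 ratio turned to 0.13. In erythroid cells Mmp14 had 390 counts in 600 cells in air and 43 counts in 87 cells in hyperoxia, a log2 ratio of -1.03, and Timp3 had 254 and 25 counts, a log2 ratio of -1.20.

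The median gene of the erythroid class was also lower in hyperoxia, at a log2 ratio of -0.42. Erythroid cells held myofibroblast markers at 2252 CPM in air and 1441 CPM in hyperoxia, and alveolar fibroblast markers at 4292 and 5967 CPM. By the mean of single cells the log2 ratios there were -0.50 for Mmp14 and -0.51 for Timp3, both under 2-fold. The part of fibroblast RNA in these values was not tested.

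In the fibroblast classes with enough cells, each of these genes was within 2-fold between hyperoxia and air at pnd7. In alveolar fibroblasts, 107 cells in hyperoxia and 114 in air, Mmp2 was at 807 against 941 CPM, Mmp14 at 548 against 533, Timp2 at 485 against 537 and Timp3 at 182 against 242 CPM, with log2 ratios from -0.41 for Timp3 to 0.04 for Mmp14. In myofibroblasts and smooth muscle, Mmp14 was at 628 against 703 CPM and Timp3 at 322 against 275 CPM. Pericyte Timp3 was at 216 against 151 CPM, a log2 ratio of 0.52. With 6 and 14 cells, adventitial fibroblasts were too few at pnd7 to be counted. Mmp2 there was at 293 CPM in hyperoxia and 660 CPM in air, a gap past 2-fold.

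**Figure D4:**
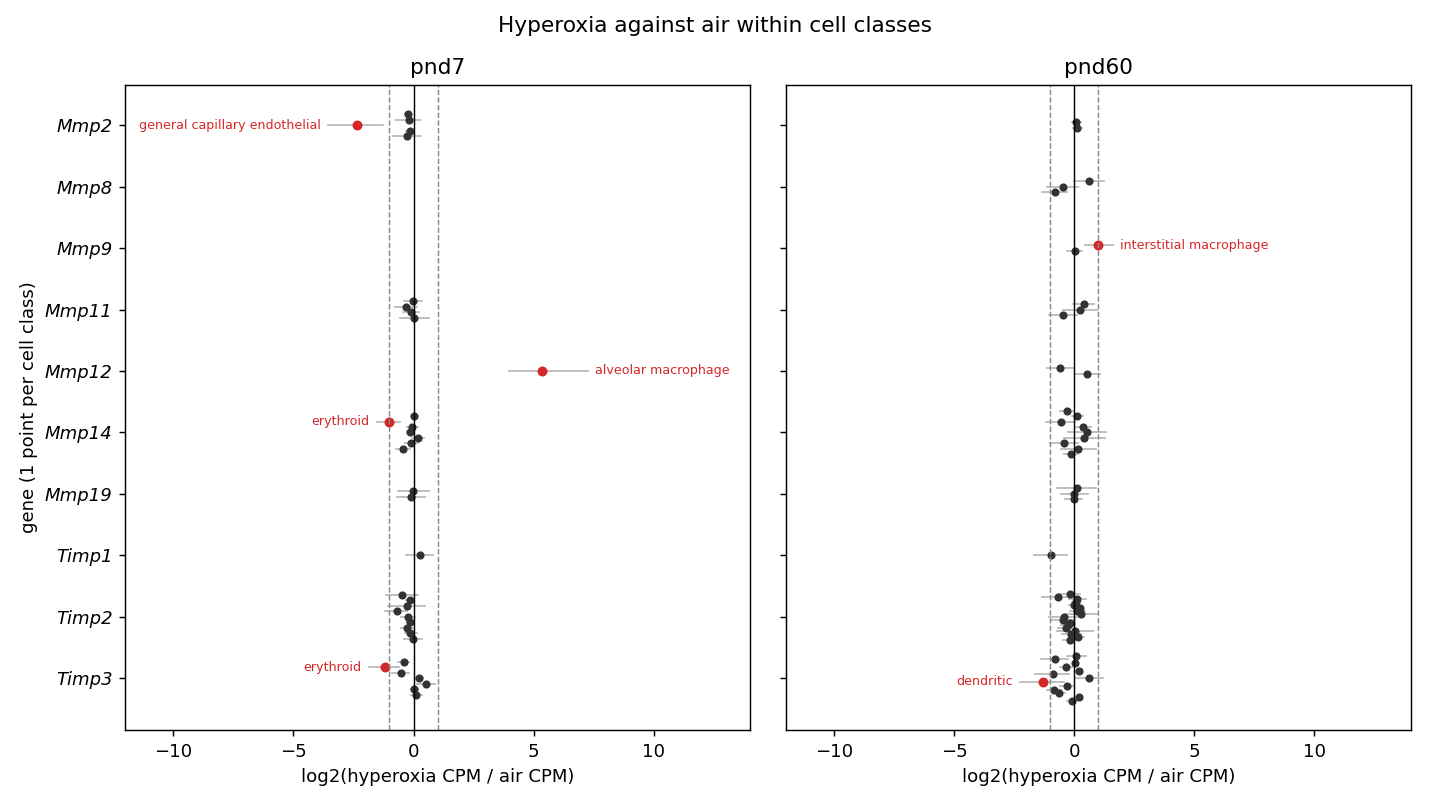
Log2 ratio of hyperoxia to air CPM at pnd7 (left) and pnd60 (right) for each gene, with 1 point per cell class and its 95% counting interval; dashed lines mark 2-fold and red points are named pairs past it. Most points lie near 0, and Mmp12 in alveolar macrophages at pnd7 lies farthest from it at 5.35.

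At pnd60, hyperoxia and air differed in 2 of 55 pairs in 18 classes, from all 10 genes, with a median log2 ratio of -0.01. Of these, 1 was higher and 1 lower, beside 0.674% of all pairs higher and 0.655% lower. Mmp9 in interstitial macrophages was higher and Timp3 in dendritic cells lower. Both lay close to the limit or rested on few counts. Timp3, with 36 counts in air and 16 in hyperoxia, reached the minimum of counts only by its air level. It thus cannot be weighed against the 0.655%.

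Mmp9 in interstitial macrophages was at 164 CPM (117 to 223) in air and 329 CPM (259 to 413) in hyperoxia, from 40 counts in 8 of 66 cells and 75 counts in 15 of 56 cells. The log2 ratio was 1.01 (0.43 to 1.60), and it went from 0.92 to 1.16 over the alternatives, so that 2-fold was missed in some of them. At pnd7 the class held 9 Mmp9 counts in 22 cells in air and none in 19 cells in hyperoxia, which allows up to 15.4 CPM. No interstitial macrophage at pnd60 held both Mmp9 and Mmp12. Mmp9 was found in 15 of the 56 cells in hyperoxia and 8 of the 66 in air, and Mmp12 in 10 and 12, so that the product of the shares is 4.78% of cells in hyperoxia and 2.20% in air, and none at this number of cells does not show that the genes keep apart.

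Timp3 in dendritic cells was at 20.2 CPM in hyperoxia on 16 counts and 50.3 CPM in air on 36 counts, a log2 ratio of -1.32. The air value is about that of Timp3 in B cells. Of fibroblast markers in the dendritic cells, those of myofibroblasts were at 126 CPM in air and 24.0 CPM in hyperoxia, those of alveolar fibroblasts at 293 and 264 CPM, and those of adventitial fibroblasts at 46.1 and 53.0 CPM, and their part in the ratio was not tested. Without the highest cell of each library the log2 ratio was -0.78. Mmp12 in the same classes did not pass 2-fold, at 316 against 217 CPM in interstitial macrophages and 68.2 against 102 CPM in dendritic cells.

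In the stromal classes at pnd60, adventitial fibroblasts had Timp3 at 5715 CPM in hyperoxia and 5620 in air, Timp2 at 2078 and 1977, Mmp2 at 1575 and 1478, and Mmp14 at 470 and 585 CPM. Larger gaps under 2-fold were seen for Timp3 in large vessel endothelial cells, at 540 CPM in hyperoxia and 970 in air, and in pericytes, at 1508 and 2320 CPM. Timp1 was at 77.0 CPM in hyperoxia and 152 in air in adventitial fibroblasts, a log2 ratio of -0.98, where 20 of the 55 air counts came from 1 cell.

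Sorted alveolar macrophages were compared with unsorted ones of the hyperoxia library at pnd7. Of 5 genes with enough counts, 3 were higher by 2-fold or more, beside 4.93% of all 8234 genes. None was lower, beside 17.1% of all genes. Mmp14 was among the 3, with 52 counts in the sorted library and 1 in the unsorted one. The sorted class held 6645638 counts in all and the unsorted class 896188. Mmp14 thus reached the minimum of counts only by its sorted level, and its place in this tally cannot be weighed against the 4.93%. The median gene was lower in the sorted cells, at a log2 ratio of -0.32. The classes also differed in make-up: 370 of the 413 sorted macrophages lay in cluster 11, led by Hmox1, Slc7a11, Mt1 and Mmp12, which held only 2 unsorted hyperoxia cells, while 39 of the 63 unsorted ones lay in cluster 8. The unsorted cells also came from the authors' earlier dataset. Since cluster 11 is nearly all 1 library, the sort, the dataset, the library and a cell state cannot be told apart.

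Mmp12 had a log2 ratio of 1.94 (1.69 to 2.21) of sorted to unsorted, from 540 and 141 CPM. It was 2.44 without the highest cell of each library, which held 542 counts in the sorted one, and 2.27 with median-of-ratios scaling. Mmp19 had a log2 ratio of 2.35 (1.93 to 2.81), from 263 and 51.3 CPM. Within the dividing cells of cluster 28, Mmp19 was at 32.7 CPM in air, 30.8 in hyperoxia and 78.3 in the sorted library, and in the sorted cells of cluster 11 it was at 299.6 CPM.

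Mmp14 was the other gene past 2-fold, at 7.82 CPM on 52 counts in the sorted macrophages and 1.12 CPM on 1 count in the unsorted ones. Its log2 ratio of 2.81 had an interval from 0.27 to 8.14, and in air at pnd7 the class was at 18.9 CPM. Mmp8, with a log2 ratio of 0.42, and Timp2, with -0.26, stayed within 2-fold. Mmp12 and Mmp19 were found together in 161 of the 413 sorted macrophages, 39.0%, where the product of their shares is 34.7%.

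Interstitial macrophages fell under the 30-cell minimum, with 49 sorted and 19 unsorted cells. Mmp12 there was at 299 CPM on 226 counts in the sorted library and 4.18 CPM on 1 count in the unsorted one. Of the 226 counts 114 were in 1 cell and 181 in 3 cells. Summed alveolar macrophage markers in these interstitial macrophages were at 536 CPM in the sorted and 138 CPM in the unsorted library, and their part in the Mmp12 counts was not tested. Mmp14 was at 195 and 159 CPM and Timp2 at 279 and 418 CPM.

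More pairs differed between ages than between exposures. Between pnd7 and pnd60 in air, 12 of 31 pairs in 10 classes, from 6 of the 10 genes, were higher at pnd60, beside 14.6% of all pairs, and 6 were lower, beside 8.95%. After hyperoxia, 11 of 28 pairs in 9 classes, from 8 genes, were higher, beside 17.9% of all pairs, and 2 were lower, beside 9.82%. The inhibitors and the proteases differed in their counts, but all inhibitor pairs came from 2 of the 3 genes, Timp2 and Timp3. Timp1 had too few counts within classes. Over all cells Timp1 went the other way, from 11.7 CPM at pnd7 to 5.97 CPM at pnd60 in air. After hyperoxia it went from 9.80 to 3.69 CPM, though class make-up differed between the ages. In air the 18 inhibitor pairs had a median log2 ratio of 1.35, with 12 higher and 1 lower, and the 13 protease pairs had -0.25, with 0 higher and 5 lower. The lower inhibitor pair was Timp2 in ciliated cells, at 173 CPM at pnd7 and 64.2 at pnd60. Mmp14 was also lower there, at 176 and 20.8 CPM. That class is uncertain, since integrated clusters named 21 cells ciliated in air at pnd7, against 120 here. In hyperoxia at pnd7 it held 6 cells, too few for the tally. After hyperoxia the 14 inhibitor pairs had a median of 1.59, with 10 higher, and the 14 protease pairs -0.31, with 1 higher and 2 lower. These inhibitor counts and medians include B cells, which measure free RNA here, T cells and alveolar macrophages. Some of these pairs reached the minimum of counts only by their pnd60 level. Timp3 in B cells in air, for example, had 2 counts at pnd7 and 101 at pnd60. Outside the immune classes, 7 of 12 inhibitor pairs were higher and 1 lower in air, with a median of 1.05, and 7 of 10 were higher and 0 lower after hyperoxia, with a median of 1.31.

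Timp3 and Timp2 are shown by their promoters because both were higher at pnd60 in the same classes. Timp3 is an inhibitor that binds to the matrix and also blocks some Adam proteases, and Timp2 is a secreted inhibitor that also takes part in activating Mmp2. The RefSeq windows of GRCm38.p6 are the 250 bases before each start, at chr10:86300162-86300411 on the plus strand for Timp3 and at chr11:118355412-118355661 on the minus strand for Timp2. Capitals mark the GC box GGGCGG, searched on both strands, so that it reads CCGCCC in Timp3.
Timp3: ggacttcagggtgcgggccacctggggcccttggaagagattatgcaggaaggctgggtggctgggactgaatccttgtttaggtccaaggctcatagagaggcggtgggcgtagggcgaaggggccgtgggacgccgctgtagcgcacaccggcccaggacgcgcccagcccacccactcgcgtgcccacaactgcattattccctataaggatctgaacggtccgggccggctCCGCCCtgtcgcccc
Timp2: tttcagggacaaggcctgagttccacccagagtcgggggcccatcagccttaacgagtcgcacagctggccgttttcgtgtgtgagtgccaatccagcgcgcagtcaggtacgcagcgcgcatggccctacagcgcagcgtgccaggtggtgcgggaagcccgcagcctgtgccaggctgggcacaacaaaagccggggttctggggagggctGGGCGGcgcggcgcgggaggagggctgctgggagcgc
Each window held 1 GC box, as did that of Timp1, and those of Mmp11 and Mmp14 held 2 each; 32.7% of all windows hold these letters. Neither Mmp12 window held one. None of the 8 windows, which cover 7 of the 10 genes, held TATAAA, which 12.4% of all windows hold.

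Timp3 was higher at pnd60 in alveolar fibroblasts, pericytes and type I cells under both exposures. In alveolar fibroblasts it went from 242 CPM at pnd7 to 1761 at pnd60 in air, a log2 ratio of 2.86, and from 182 to 1996 CPM after hyperoxia, a log2 ratio of 3.46. In pericytes it went from 151 to 2320 CPM in air and from 216 to 1508 CPM after hyperoxia, log2 ratios of 3.94 and 2.80. In type I cells it went from 863 to 2604 CPM and from 879 to 2942 CPM, log2 ratios of 1.59 and 1.74. In each of these classes both pnd60 levels lay above both pnd7 levels.

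The median gene of these 3 classes moved little between ages, with log2 ratios from -0.05 to 0.11, and the ratios of Timp3 stayed past 2-fold under every alternative that gave them. Smaller classes went the same way: with 19 and 21 cells at pnd60, myofibroblasts and smooth muscle had Timp3 at 2210 CPM against 275 at pnd7 in air and 3733 against 322 CPM after hyperoxia. Adventitial fibroblasts, with 14 cells in air at pnd7, went from 854 to 5620 CPM. Aerocytes, the wide capillary cells of the alveolus, were lower at pnd60 by less than 2-fold, with 1056 CPM at pnd7 and 784 CPM at pnd60 in air, a log2 ratio of -0.43, and 1001 and 614 CPM after hyperoxia, a log2 ratio of -0.71, on under 30 cells at pnd7. Most type I cells, general capillary cells, aerocytes and myofibroblasts of the 2 ages lay in different clusters, while pericytes and adventitial fibroblasts were 1 cluster each.

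Timp2 was higher at pnd60 in the same 3 classes and in general capillary cells. In alveolar fibroblasts it went from 537 to 1113 CPM in air and from 485 to 1310 CPM after hyperoxia, log2 ratios of 1.05 and 1.43. In type I cells it went from 336 to 1072 and from 308 to 1201 CPM, in pericytes from 379 to 782 and from 315 to 719 CPM, and in general capillary cells from 203 to 439 and from 174 to 391 CPM. Type II cells, which make surfactant, stayed within 2-fold for both inhibitors, with Timp3 at 133 CPM in air at pnd7 and 132 CPM in air at pnd60.

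Alveolar macrophages and lymphocytes gave higher inhibitor counts at pnd60 as well, and fibroblast markers in B cells were also higher there. In B cells Timp3 went from 3.04 to 46.7 CPM in air and from 0, which allows up to 7.91 CPM, to 49.7 CPM after hyperoxia, while summed alveolar fibroblast markers in the same cells went from 76.1 to 561 CPM and from 47.2 to 555 CPM. Alveolar macrophage Timp3, at 6.02 CPM in air at pnd7 and 34.5 CPM at pnd60, was below the B cell level at pnd60. Alveolar macrophage Timp2 went from 33.5 to 106 CPM in air and from 27.9 to 116 CPM after hyperoxia, with log2 ratios of 1.65 and 2.05. Its pnd60 levels lay above the 43.0 and 37.8 CPM of B cells, the lowest of the 22 classes for Timp2. They lay nearer those of T cells, at 84.1 CPM in air and 92.2 after hyperoxia, NK cells, at 126 and 80.0, and dendritic cells, at 124 and 90.9. The part of free RNA in these levels was not tested.

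Mmp14 and Mmp2 were lower at pnd60 in several of these classes. Mmp14 in alveolar fibroblasts went from 533 to 252 CPM in air and from 548 to 276 CPM after hyperoxia, log2 ratios of -1.08 and -0.99. In type I cells it went from 296 to 122 and from 279 to 137 CPM, log2 ratios of -1.28 and -1.02. In general capillary cells it went from 322 to 130 and from 309 to 169 CPM, log2 ratios of -1.31 and -0.87. Pericyte Mmp14 stayed within 2-fold in air, at 330 CPM in air at pnd7 and 404 CPM in air at pnd60.

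Mmp2 in alveolar fibroblasts went from 941 to 440 CPM in air and from 807 to 481 CPM after hyperoxia, log2 ratios of -1.10 and -0.75. Alveolar fibroblasts of the 2 ages lay in different clusters, and the ratios for Mmp2 and Mmp14 in air depended on how cells were classed: at the coarser clustering they were -0.34 and -0.60, and with integrated clusters -0.90 and -0.79, all under 2-fold. Large vessel endothelial cells, with 16 and 23 cells at pnd7, had Mmp2 at 327 CPM in air and 574 in hyperoxia at pnd7 but at 82.3 and 45.0 CPM at pnd60. All their pnd7 cells lay in cluster 26, while 48 cells in air and 55 in hyperoxia at pnd60 lay in cluster 31, which held no pnd7 cell. Adventitial fibroblasts went the other way, from 660 CPM in air at pnd7, in 14 cells, to 1478 CPM in air at pnd60.

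**Figure D5:**
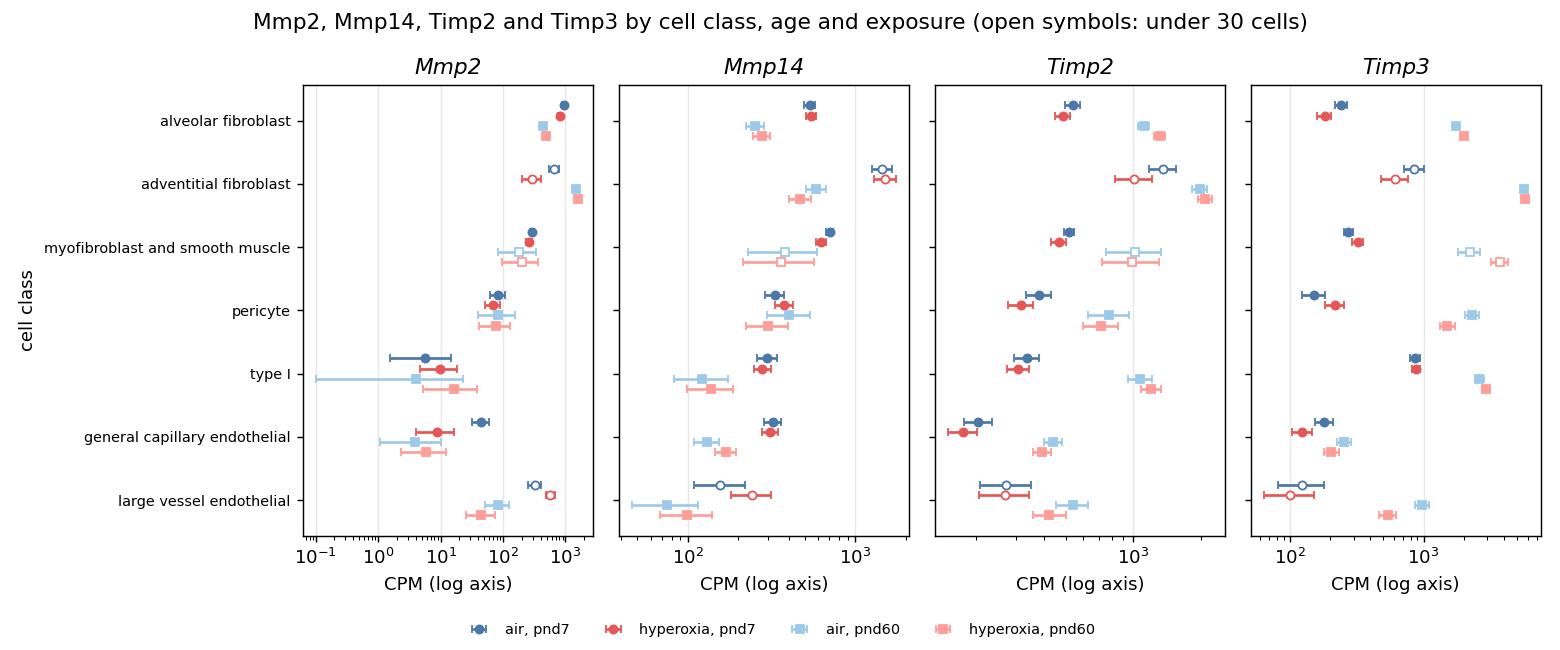
Levels of Mmp2, Mmp14, Timp2 and Timp3 by cell class in the 4 unsorted libraries, in CPM on a log axis with 95% counting intervals; open symbols mark fewer than 30 cells. In alveolar fibroblasts and type I cells, both pnd60 libraries lie above both pnd7 libraries for Timp2 and Timp3 and below them for Mmp14. How many other genes do so was not counted.

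Of the macrophage proteases, Mmp8 and Mmp12 passed 2-fold between ages after hyperoxia. Each reached the minimum of counts only by the age at which it was higher, so neither can be weighed against the shares of all pairs. Mmp8 in alveolar macrophages was at 16.7 CPM on 15 counts at pnd7 and 38.2 CPM on 60 counts at pnd60, a log2 ratio of 1.19 and the only protease pair that was higher. Alveolar macrophage Mmp12 after hyperoxia was at 141 CPM at pnd7 and 16.5 CPM at pnd60, a log2 ratio of -3.09. Without the highest cell of each library no count was left at pnd60. With 3 counts set in place of none, the log2 ratio was -5.45, which is a bound and not a measured ratio. Interstitial macrophages showed the opposite order on fewer cells, with no Mmp12 count in 22 cells in air at pnd7, which allows up to 14.7 CPM, against 53 counts in 66 cells, 217 CPM, in air at pnd60, and 4.18 against 316 CPM after hyperoxia. At pnd60 only 12 of the 66 cells in air and 10 of 56 after hyperoxia held Mmp12. After hyperoxia 1 cell held 33 of the 72 counts. Mmp19 in alveolar macrophages stayed within 2-fold between the ages. In alveolar fibroblasts Mmp19 was at 29.4 and 56.8 CPM in air, and 29.2 and 57.0 CPM after hyperoxia.

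The balance of inhibitor to protease counts can be compared between libraries within a class, though not as amounts of protein. The log2 ratio of summed Timp to summed Mmp counts in alveolar fibroblasts was -1.0 in air and -1.09 in hyperoxia at pnd7, and 1.78 and 1.86 at pnd60. In type I cells it was 1.29 and 1.34, then 3.82 and 3.77, and in pericytes 0.28 and 0.21, then 2.57 and 2.55. The gap between exposures was small beside that between ages in these 3 classes. In alveolar macrophages it was -1.48 in air, -2.92 in hyperoxia and -4.98 in the sorted library at pnd7, and 0.07 and -0.18 at pnd60. B cells, the measure of free RNA, had -0.26 in air and 1 in hyperoxia at pnd7, and 2.12 and 2.15 at pnd60. Their pnd7 values rested on 10 inhibitor and 12 protease counts in air, and 4 and 2 in hyperoxia. The part of free RNA in the balances of the other classes was not tested.

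Genes of the same pathway that are not among the 10 were counted from lists, to be read beside the shares of all pairs that were higher and lower: 0.833% and 2.45% for hyperoxia at pnd7, 0.674% and 0.655% at pnd60, 14.6% and 8.95% for age in air and 17.9% and 9.82% after hyperoxia, and 4.93% and 17.1% in sorted alveolar macrophages. Of other Mmp genes, 16 in all, 1 of 8 pairs was lower at pnd7 in hyperoxia and 1 of 8 higher at pnd60: Mmp3, or stromelysin-1, in adventitial fibroblasts, at 542 CPM in hyperoxia and 239.9 CPM in air. With age in air, 1 of 6 pairs was higher and none lower, and after hyperoxia 1 of 5 was higher and 2 lower. Of 10 other regulators, among them Reck, a membrane-anchored inhibitor, 10 of 47 pairs were higher and 3 lower with age in air, and 10 of 40 higher and 1 lower after hyperoxia.

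Of matrix genes that these proteases cut, or that build and link the matrix, 46 of 93 pairs over 20 genes were lower and 13 higher with age in air, with a median log2 ratio of -0.90. After hyperoxia 22 of 75 were lower and 14 higher, with a median log2 ratio of -0.37. For hyperoxia against air, 0 of 111 pairs were higher and 11 lower at pnd7, and 3 of 107 were higher and 3 lower at pnd60. Among cathepsins and cystatins, 2 of 11 were higher in sorted than in unsorted macrophages, the elastin-cutting Ctsk at 454 against 100.4 CPM and the protease inhibitor Cstb at 1749 against 646 CPM. Of Adam and Adamts genes, 1 of 6 was higher there and 1 lower, Adam15 at 29.2 against 68.1 CPM.

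The genes most like each of the 10 over 63 sums of class and library, by Pearson's r of log2(CPM + 1) among 11058 genes, are given as a description, since sums share libraries and depth. Mmp2 was most like Bgn (r = 0.92), Mmp14 like Wtip (0.89), Mmp11 like Col4a5 (0.87), Mmp9 like S100a9 (0.76), Mmp8 like Cxcr2 (0.81), Mmp12 like Hpgds (0.79) and Mmp19 like Eepd1 (0.78). Timp1 was most like Zfpm2 (0.84), Timp2 like Pmp22 (0.86) with Timp3 next (0.82), and Timp3 like Cavin1 (0.92).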

How the data were processed

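Single-cell libraries from mouse lung were made with 10x Chromium 3′ chemistry, and the deposited files hold unique molecule counts per gene and barcode, which the authors made with Cell Ranger against mm10 (submitters' processing notes, which also name Seurat 3.2.1). Counts were used as deposited. A barcode was kept as a cell when it had 700 to 8000 genes and its mitochondrial share was under 5%. That share covers only the 2 features whose symbols start with mt-, so the cut is a weak one. Cells were clustered with scanpy 1.11.5 on 3000 variable genes, leaving out the 10 genes described, with 50 components, 15 neighbours and Leiden resolution 2. Of 53 clusters, 47 were named from marker lists, in 24 classes, of which 22 had 30 cells or more in a library. Clusters integrated with Seurat 5.3.0, after the study's methods, left much of the sorted library unnamed and were an alternative. Scrublet called 1 to 4 doublets in each pnd7 library and 138 and 156 at pnd60, which were kept.

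Counts were summed per class and library and given as CPM with exact Poisson intervals. Log2 ratios have exact conditional binomial intervals. Where a side had no count, 3 counts were set in its place, and the ratio is then a bound. Both are 95% intervals for counting error. Shares of thinned cells have 95% exact binomial intervals over the cells of a library. No test across mice was made, since there was 1 library for each condition. The 10 genes, lists and markers were chosen with earlier results of these data known. The genes named outside the 10 were, per list, those with the largest levels or ratios, and the genes most like each of the 10 by correlation; Reck, Timp4, Mmp23 and Mmp25 were named after their values were seen. The calculation was tested on simulated data. Promoter windows and positions are RefSeq's on GRCm38.p6; the table has no entry for Mmp2, Mmp9 and Mmp19. Mmp19, Timp1 and Timp3 overlap an antisense gene and Timp2 a gene on its own strand; counts there may be shared.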

Additional observations from a re-analysis of the deposited data

How the results depend on the processing

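No paired analysis was possible because the comparisons had a lone library on either side. For the same reason, differences between mice, litters and library runs cannot be told apart from those of exposure or age, and depth, free RNA and class make-up differed between ages.

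The count of gene and class pairs past 2-fold was 4 for hyperoxia against air at pnd7, 2 at pnd60, 3 for sorted against unsorted macrophages, and 18 in air and 13 after hyperoxia for pnd60 against pnd7. At pnd7 the count was 2 by the mean of single cells, with integrated clusters, with median-of-ratios scaling and with at least 200 counts. At pnd60 it was 5 by the mean of single cells, 4 with cells classed one by one from markers, 1 with integrated clusters, 1 with median-of-ratios scaling, 6 with at least 20 counts, 0 with at least 200 counts, and 1 without the highest cell of each library, an alternative added after seeing the data. For age in air it was 11 with at least 200 counts, and after hyperoxia 21 with cells classed from markers. Mmp2 in general capillary cells at pnd7 turned to a log2 ratio of 0.13 at Leiden resolution 1. The other counts stayed within 1.5 times of these values. The pairs behind the counts changed more. Of the ratios past 2-fold that an alternative gave, 17 of 30 stayed so with integrated clusters and 21 of 36 with cells classed from markers. It was 29 of 40 by the mean of single cells, 24 of 33 with the wider cell filter, and 22 of 33 at Leiden resolution 1, where 1 reversed. Without called doublets it was 35 of 37, and with median-of-ratios scaling 37 of 40.

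The class with the highest level was kept for 7 of 10 genes at Leiden resolution 1, for 8 by the mean of single cells and with cells classed from markers, for 9 with integrated clusters, with at least 200 counts and, an alternative added after seeing the data, without the sorted library, and for all 10 with the wider cell filter, without called doublets and with at least 20 counts. Mmp12 moved to interstitial macrophages by the mean of single cells or without the sorted library, and to dendritic cells with markers per cell or integrated clusters.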

Other observations

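Other metalloproteases and inhibitors lay in classes of their own. Mmp15, a membrane-type metalloprotease, was highest in type II cells at 198 CPM, with 3759 counts in all. Mmp23 was highest in adventitial fibroblasts at 149.8 CPM, as was Mmp3 at 285 CPM, and Mmp25, known from neutrophil membranes, was highest in neutrophils at 107 CPM. Timp4 had 90 counts in all, and Timp4 and Reck were highest in pericytes, at 35.7 and 126 CPM.

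The 299 unnamed cells also held counts of these genes. Mmp2 was at 399 CPM in the 61 unnamed cells in air at pnd7 and 318 CPM in the 142 in hyperoxia at pnd7, and Mmp14 at 354 and 262 CPM. Mmp19 was at 68.7 CPM in the unnamed cells in air and 15.1 CPM in those in hyperoxia at pnd7, where 1 of the 61 cells in air held 14 of their 27 counts.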
